A study of Rattus norvegicus with 6 samples.

Results

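The unfolded protein response and chaperone genes described here were a list of 36 rat genes that fold proteins, sense unfolded proteins or remove them. They were chosen by name and not by a measured value, and they stand among 16575 genes with a probe on the array. A probe was assigned to a gene when its accession carried the gene symbol in the RefSeq gene table of the GRCr8 assembly, and where several probes matched, the probe of highest average signal across the 6 arrays stands for the gene. By this match 34 of the 36 genes had a probe. Manf and Derl2 had no matched probe. Of the 34, 33 passed the filter on dim probes and were tested, and 32 of these were well above background on all 6 arrays. The remaining tested gene, Pdia4, was well above background on the 3 C3a arrays and on 2 of the 3 control arrays, so it passed through the C3a group. Ern1, the sensor IRE1, did not pass, since 2 of 3 control arrays and 1 of 3 C3a arrays met that mark.

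Neonatal rat ventricular cardiomyocytes (NRVCs) are beating muscle cells cultured from the ventricles of newborn rats. Per the labels, hearts of 8 to 10 Sprague-Dawley rats aged 1 to 2 days were pooled for a preparation, fibroblasts and other fast-attaching cells were reduced by preplating, and cells were grown in Ultraculture serum-free medium on collagen-coated glass. The C3a group received recombinant C3a, the fragment released when complement protein C3 is cleaved, at 0.5 µg/ml for 12 h, and the control group of the same cells received none. Each group had 3 arrays. The methods add a short starvation in low serum before stimulation. The study asked which genes C3a changes in these cells, in view of a role of complement in failure of the right ventricle, and the comparison below asks it of protein folding genes.

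Proteins bound for the membrane or for secretion fold in the endoplasmic reticulum (ER) with the help of chaperones and disulfide isomerases. When unfolded proteins build up there, the sensors IRE1, PERK and ATF6 start the unfolded protein response, in which the transcription factors XBP1, ATF4 and cleaved ATF6 raise the genes of chaperones, of ER-associated degradation and of amino acid supply. The heat shock proteins do the corresponding work in the cytosol and in mitochondria under the factor HSF1, and cardiac muscle cells hold large amounts of small heat shock proteins such as αB-crystallin.

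All 6 arrays lay on 1 slide and were scanned on 1 date, with the groups in separate rows of the slide, so the effects of row and of treatment cannot be told apart. Control replicate 1 had 38.6% of its probes well above background, the other arrays 53.7% to 57.3%, and the median background was 47 intensity units on the former and 23 to 24 on the latter. No spot was saturated. The 75th percentile of probe intensity was 273, 367 and 269 units in control replicates 1 to 3. It was 230, 288 and 207 units in C3a replicates 1 to 3. Of 11 cardiomyocyte markers, 10 were tested and exceeded background clearly on every array, with a mean level over the list of 7.92 to 8.13 in controls and 8.02 to 8.17 with C3a. The mean level over the 8 of 9 fibroblast markers tested was 0.46 to 0.69 in controls and 0.47 with C3a on every array. Single fibroblast markers ranged in control mean from -3.04 for Lum to 5.36 for Col1a1 and 5.72 for Col1a2. Over the 5 of 6 endothelial markers tested, the mean level was 1.46 to 1.78 in controls and 1.67 to 1.92 with C3a. Over the 4 smooth muscle markers it was 1.47 to 1.72 in controls and 1.54 to 1.63 with C3a. Of 6 macrophage markers, 4 were tested, Lyz2, Cd68, Aif1 and Csf1r, with a mean level of -1.09 to -0.87 in controls and -0.98 to -0.86 with C3a. These levels, and those given for single genes below, are log2 signals with the array's own 75th percentile subtracted, called log2 signal from here on. Differences in log2 signal are C3a minus control.

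No gene of the list passed the adjusted threshold of 0.05 in limma. The smallest adjusted p among the 33 tested genes was 0.743, and 0% of the 10390 genes tested on the array passed. The plain equal-variance test that the methods name also gave none after adjustment. At an unadjusted p under 0.05, limma gave 2 members higher with C3a, Hsp90ab1 and Hsp90aa1, where 2.91% of all genes were higher by this measure (6.06% of members). Of the 302 genes higher, 252 had a mean log2 signal under 0. From 4 to 6, where Hsp90ab1 lay, 6 of 977 genes were higher, and over 6, where Hsp90aa1 lay, 4 of 426. Limma gave 1 member lower, Calr, or 3.03% of members, where 2.43% of all genes were lower. In the methods' test the counts of members higher and lower were 3 and 0. The direction of the 33 differences was divided, with 19 above 0 and 14 below 0, and their median of 0.036 equalled that of all genes tested, 0.036.

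The 3 C3a arrays lay entirely above the 3 control arrays for 6 members, Hyou1, Sdf2l1, Hspa8, Hsp90aa1, Hsp90ab1 and Hspd1, which is 18.2% of those tested against 8.15% of all genes. Of the 6, Hspa8, Hsp90aa1 and Hspd1 had a mean log2 signal over 6, where the median difference of all genes was 0.16. The share without overlap among genes of like signal was not counted. The C3a arrays lay entirely below the controls for 1 member, Calr, which is 3.03% against 4.84% of all genes. Between same-numbered arrays, 8 members were higher with C3a in all 3 pairs and 8 lower in all 3, or 24.2% each, where 23.5% of all genes were higher and 15.1% lower. With 3 arrays against 3, the exact permutation test of a single gene cannot give a two-sided p below 0.1. The labels do not say whether the 3 arrays of a group came from separate preparations, so the p-values measure the spread between these samples, which may be technical. In RNA from whole cultures, fewer cells of a type and less RNA per cell cannot be told apart.

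**Figure D1:**
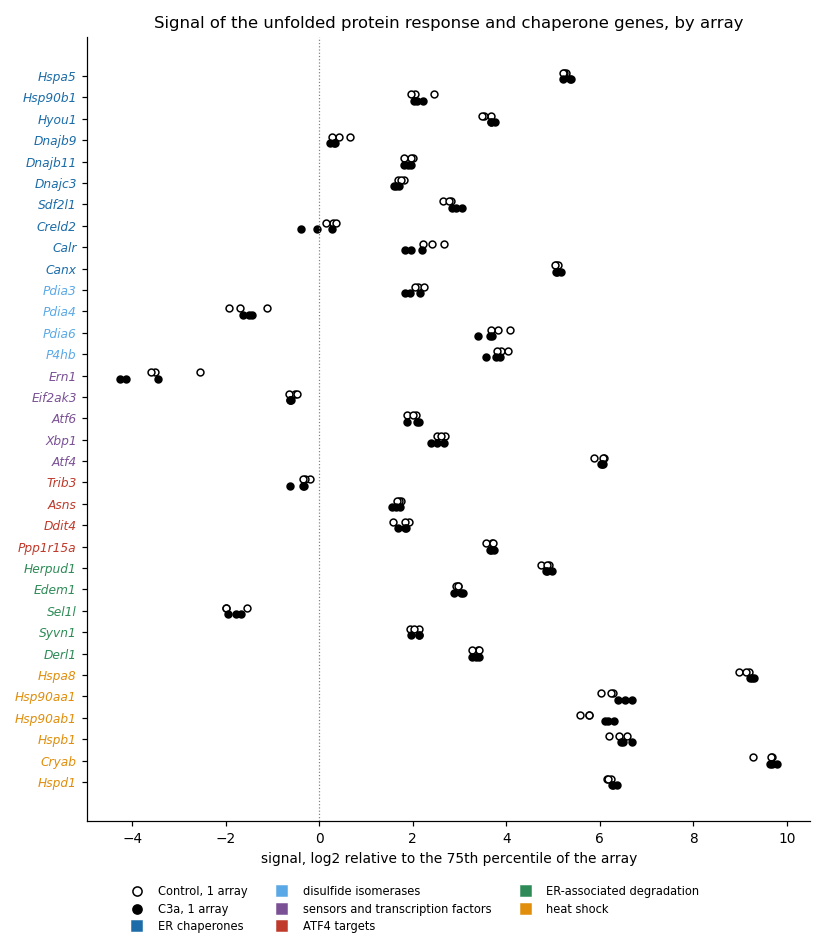
Log2 signal minus the 75th percentile of its array (x axis) of the 34 genes with a probe (y axis, coloured by branch), 1 point per array, open for control and filled for C3a. The points of both groups overlap for most genes; C3a points lie wholly to the right for 6 genes, among them Hsp90ab1, and wholly to the left for Calr.

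The ER chaperones split between genes somewhat higher and genes lower with C3a. Of 11 genes, 10 were tested, of which 4 had a difference above 0 and 6 below 0, with a median of -0.035. Hspa5, which encodes BiP, the Hsp70 of the ER that also holds the sensors inactive, had log2 signals of 5.27, 5.24 and 5.22 in control replicates 1 to 3 and of 5.39, 5.22 and 5.37 in C3a replicates 1 to 3. The groups overlapped, with C3a replicate 2 at the level of the controls. The difference in Hspa5 was 0.08 ± 0.09 (SE), with a 95% interval from -0.14 to 0.30 (limma, adjusted p = 0.802), so a rise of more than 0.30 on the log2 scale lies outside the interval.

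Calr encodes calreticulin, the calcium-binding lectin chaperone that, with calnexin, folds glycoproteins. Its log2 signal was 2.42, 2.67 and 2.21 in control replicates 1 to 3. With C3a it was 1.97, 2.20 and 1.84. Every C3a array lay below every control array, the closest pair being C3a replicate 2 and control replicate 3. Calr read highest on control replicate 2, the array of highest 75th percentile, and lowest on C3a replicate 3, that of the lowest. A link with array brightness was not tested. Between arrays with the same replicate number the difference in Calr was -0.45, -0.47 and -0.38. The mean difference of -0.43 ± 0.15 (SE) corresponded to a 1.35-fold lower signal (limma, unadjusted p = 0.0248, adjusted p = 0.743). With the replicate number as a block the unadjusted p was 0.00345 and the adjusted p 0.221. The unadjusted p rose above 0.05 when either C3a replicate 1 (0.067) or 3 (0.086) or control replicate 1 (0.053) or 2 (0.070) was left out, while the difference stayed between -0.54 and -0.31.

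Canx encodes calnexin, the membrane-bound partner of calreticulin. Its log2 signals lay between 5.04 and 5.18 on the 6 arrays, the groups overlapped, and its difference was 0.03 ± 0.09 (SE). Creld2, a small ER protein induced under ER stress, had 0.28, 0.36 and 0.14 in controls and -0.05, 0.26 and -0.38 with C3a. It was lower with C3a in every pair of same-numbered arrays, by amounts from 0.09 to 0.52, although the groups overlapped. The mean difference in Creld2 was -0.32 ± 0.17 (SE; limma, unadjusted p = 0.105, or 0.0356 with the replicate block, and adjusted p = 0.743 and 0.332).

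Hyou1 encodes the large ER chaperone that releases nucleotide from BiP. It measured 3.67, 3.53 and 3.48 in controls and 3.75, 3.68 and 3.68 with C3a, a difference of 0.15 ± 0.10 (SE). The C3a arrays lay just above the controls, the nearest values being those of C3a replicate 3 and control replicate 1. Sdf2l1, a partner of the ER DnaJ proteins, measured 2.81, 2.65 and 2.78 in controls and 3.06, 2.92 and 2.84 with C3a. Its difference of 0.19 ± 0.10 (SE) again came with groups that did not overlap, and neither gene passed an unadjusted p under 0.05 (0.174 and 0.110 in limma).

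The other ER chaperones had smaller or more scattered differences. Hsp90b1, the ER Hsp90 named GRP94, gave -0.04 ± 0.15 (SE), with same-numbered pairs from -0.43 to 0.25. Among the DnaJ co-chaperones that hand clients to BiP, the difference was -0.16 for Dnajb9, -0.03 for Dnajb11 and -0.10 for Dnajc3. Only Dnajc3 of these was lower in all 3 pairs.

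The promoters of these genes are shown because the ER stress element, the site through which ATF6 and the factor NF-Y raise ER chaperone genes, could be read in them beside the values. Windows of 250 bases before to 50 after the start of the gene came from the RefSeq promoter table of GRCr8, which held 28 of the 36 members and 27457 genes in all. Manf, Pdia3, Pdia6, Ern1, Atf6, Derl1, Hsp90aa1 and Cryab had no entry. The element was searched as CCAAT and CCACG in the same orientation with 9 bases between them, on either strand. Other spacings and orientations of these parts were not searched. It was present in 21 of the 27457 windows, or 0.0765%, and in 7 of the 28 member windows: 6 of the 10 ER chaperones with a window, and Xbp1. Its parts are common, with CCAAT in 37.7% and CCACG in 32.5% of all windows. In the lines below each stretch is printed 5′ to 3′ on the strand of the gene, with the element and its 9 inner bases in capitals. Where the element is on the opposite strand, the capitals begin with CGTGG and end with ATTGG.
Hspa5, chr3:38452953-38453011, plus strand: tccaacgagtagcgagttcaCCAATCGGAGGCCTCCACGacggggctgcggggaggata
Hsp90b1, chr7:23012431-23012489, minus strand: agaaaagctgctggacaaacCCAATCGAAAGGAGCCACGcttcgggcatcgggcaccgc
Hsp90b1, chr7:23012327-23012385, minus strand: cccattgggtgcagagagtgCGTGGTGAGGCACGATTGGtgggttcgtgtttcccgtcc
Creld2, chr7:121789219-121789277, plus strand: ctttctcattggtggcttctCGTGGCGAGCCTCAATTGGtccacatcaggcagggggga
Canx, chr10:35158049-35158107, minus strand: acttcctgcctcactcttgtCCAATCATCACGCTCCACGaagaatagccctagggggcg
Dnajc3, chr15:102432514-102432572, plus strand: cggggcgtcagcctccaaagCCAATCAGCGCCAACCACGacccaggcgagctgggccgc
Calr, chr19:40213117-40213173, plus strand: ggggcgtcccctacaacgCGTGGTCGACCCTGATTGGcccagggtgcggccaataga
Xbp1, chr14:84604538-84604596, plus strand: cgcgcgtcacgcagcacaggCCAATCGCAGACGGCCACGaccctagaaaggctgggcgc

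The element lay within 43 to 25 bases before the start in Hspa5 and 65 to 47 bases before it in Xbp1, and farthest from it in Calr, 232 to 214 bases. Hsp90b1 held a pair of elements in opposite orientation. The 7 members that share the element did not share a direction with C3a. Their differences were 0.08 for Hspa5 and 0.03 for Canx, and -0.04 for Hsp90b1, -0.07 for Xbp1, -0.10 for Dnajc3, -0.32 for Creld2 and -0.43 for Calr, with a median of -0.073. Of the 14 other genes whose window held the element, 8 were tested, 3 with a difference above 0 and 5 below 0, and none had an unadjusted p under 0.05 in limma. A match of letters is a description of the window and not a site of binding.

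A second motif of the response, the UPR element TGACGTGG, was in 0.637% of all windows and in 1 member, Hyou1, 191 to 184 bases before the start. The capitals mark the UPR element. The stretch is shown because Hyou1 was higher with C3a in all 3 pairs, as were 23.5% of all genes (Hyou1 in limma, unadjusted p = 0.174). A link between the motif and the difference was not tested.
Hyou1, chr8:53602671-53602718, plus strand: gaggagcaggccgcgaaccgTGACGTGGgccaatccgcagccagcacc

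The disulfide isomerases, which form and shuffle the disulfide bonds of folding proteins, were lower with C3a in 3 of 4 genes, with a median of -0.17. P4hb, the classical protein disulfide isomerase, measured 3.89, 4.05 and 3.81 in controls and 3.78, 3.86 and 3.56 with C3a. The groups overlapped, but every C3a array was below the control of its number. The difference in P4hb was -0.18 ± 0.12 (SE; limma, unadjusted p = 0.168, adjusted p = 0.743). Pdia6, which also acts on the sensor IRE1, measured 3.82, 4.08 and 3.67 in controls and 3.64, 3.69 and 3.40 with C3a, and only C3a replicate 2 reached the lowest control. Its difference of -0.28 ± 0.14 (SE) had an unadjusted p of 0.0863 in limma and 0.0270 with the replicate block, with adjusted p = 0.743 and 0.311.

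With the replicate block, 3 members in all had an unadjusted p under 0.05 and a lower signal, Calr, Creld2 and Pdia6, and 2 a higher one, Hsp90ab1 and Hsp90aa1. These are 9.09% and 6.06% of the members, against 6.04% and 5.8% of all genes in the same fit. None passed the adjusted threshold in that fit. The 3 lower members each read highest on control replicate 2 and lowest on C3a replicate 3, the arrays of highest and lowest 75th percentile. The part of array brightness in their differences was not tested. Pdia3, which works with calreticulin and calnexin on glycoproteins, gave -0.15 ± 0.12 (SE), with pairs of -0.16, -0.39 and 0.10. Pdia4 was dim and scattered, with same-numbered pairs of 0.50, -0.50 and 0.19.

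**Figure D2:**
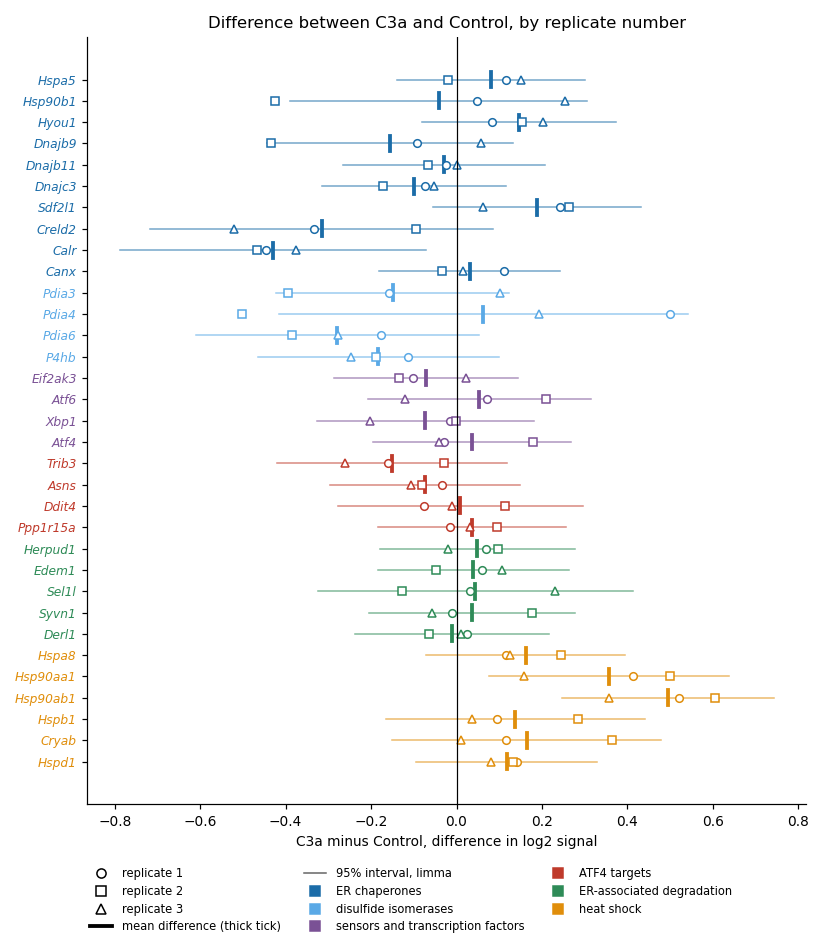
Difference in log2 signal, C3a minus control (x axis), for the 33 tested genes (y axis, coloured by branch): thick ticks are means, thin lines 95% intervals from limma, and open symbols the 3 same-numbered pairs of arrays. The interval leaves out 0 for Calr, at -0.43, Hsp90aa1, at 0.36, and Hsp90ab1, at 0.49, before adjustment for the number of tests.

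The sensors and transcription factors differed by less than the spread between arrays. Of 5 genes, 4 were tested, with differences from -0.07 to 0.05 and a median of -0.017. Atf4, the factor translated when PERK or a related kinase slows protein synthesis, measured 6.09, 5.88 and 6.07 in controls and 6.06, 6.06 and 6.03 with C3a. The C3a arrays lay within the range of the controls. The difference in Atf4 was 0.04 ± 0.10 (SE), with a 95% interval from -0.20 to 0.27. ATF4 is regulated largely at translation and IRE1 acts on XBP1 by splicing, neither of which these signals measure.

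Xbp1 measured 2.68, 2.53 and 2.59 in controls and 2.66, 2.52 and 2.39 with C3a, and the groups overlapped, with C3a replicate 2 level with the lowest control and C3a replicate 3 below it. Its difference was -0.07 ± 0.11 (SE; 95% interval -0.33 to 0.18). Eif2ak3, which encodes the sensor kinase PERK, gave -0.07 ± 0.09 (SE), and Atf6, the sensor that is cut to become a transcription factor, gave 0.05 ± 0.11 (SE). The dim probe of Ern1 read -2.56, -3.51 and -3.60 in controls and -4.26, -3.46 and -4.14 with C3a, and no difference is drawn from it because it did not pass the filter.

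The ATF4 targets had differences from -0.15 to 0.04, with a median of -0.032. Trib3, a pseudokinase induced by ATF4 and its partner CHOP, measured -0.19, -0.31 and -0.36 in controls and -0.35, -0.34 and -0.62 with C3a. The groups overlapped and the difference was -0.15 ± 0.11 (SE). Asns, asparagine synthetase, gave -0.07 ± 0.09 (SE), and both genes were lower with C3a in all 3 pairs. Ddit4, an inhibitor of mTORC1 signalling, measured 1.93, 1.58 and 1.84 in controls and 1.85, 1.69 and 1.83 with C3a. Its C3a values lay inside the control range, with a difference of 0.01 ± 0.12 (SE). Ppp1r15a encodes GADD34, which restores translation by directing removal of phosphate from eIF2α. It measured 3.69, 3.56 and 3.71 in controls and 3.68, 3.65 and 3.74 with C3a, a difference of 0.04 ± 0.09 (SE).

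The genes of ER-associated degradation, which draw unfolded proteins out of the ER for the proteasome, showed the narrowest range of any branch. Of 6 genes, 5 were tested, with differences from -0.01 to 0.05 and a median of 0.039. Herpud1, an ER membrane protein that is an early target of the response, measured 4.90, 4.75 and 4.88 in controls and 4.97, 4.85 and 4.86 with C3a, a difference of 0.05 ± 0.10 (SE). The C3a arrays were within or just above the control range. Edem1, which takes mannose-trimmed glycoproteins to degradation, gave 0.04 ± 0.09 (SE), and its 2 further probes, of lower signal, gave 0.39 and 0.06. The ligase subunits Sel1l and Syvn1, which form the HRD1 complex, each gave 0.04, and Derl1, part of the exit channel, gave -0.01. None of the 5 genes was higher in all 3 pairs or lower in all 3 pairs.

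The ATF4 element, searched as TGATGNAA on either strand, was in 3.82% of all windows and in 2 member windows, those of Trib3 and Herpud1. Both are shown because ATF4 is known to bind this motif in its target genes. The capitals mark the motif, which in both is on the opposite strand.
Trib3, chr3:161275534-161275574, minus strand: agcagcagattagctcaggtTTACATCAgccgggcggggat
Herpud1, chr19:10614864-10614911, minus strand: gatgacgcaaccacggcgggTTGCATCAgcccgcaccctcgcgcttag

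Among the 6 heat shock members every difference was above 0, with a median of 0.16, and all 6 were higher with C3a in each of the 3 same-numbered pairs. This held for 23.5% of all genes and for 53.3% of the 426 genes of strong signal described below. Of 27 other heat shock genes tested, 16 had a difference above 0 and 11 below 0, with a median of 0.039, and 5 were higher in all 3 pairs. Hsp90ab1 and Hsp90aa1 encode the constitutive and the inducible cytosolic Hsp90, which hold kinases and steroid receptors ready for activation. Hsp90ab1 measured 5.78, 5.58 and 5.76 in controls and 6.30, 6.18 and 6.12 with C3a, so every C3a array lay well above every control. The difference in Hsp90ab1 was 0.52, 0.61 and 0.36 by pair and 0.49 ± 0.11 (SE) in the mean, a 1.41-fold higher signal (limma, unadjusted p = 0.00211, adjusted p = 0.743). A second probe of Hsp90ab1, described below, gave a difference of -0.02.

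Hsp90aa1 measured 6.27, 6.03 and 6.24 in controls and 6.69, 6.53 and 6.40 with C3a. Here too the groups did not overlap, with C3a replicate 3 closest to the controls. The difference in Hsp90aa1 was 0.36 ± 0.12 (SE), a 1.28-fold higher signal (limma, unadjusted p = 0.0200, adjusted p = 0.743). The unadjusted p was 0.072 without C3a replicate 1, 0.051 without C3a replicate 2 and 0.052 without control replicate 2, and the difference stayed between 0.28 and 0.43. For Hsp90ab1 the unadjusted p stayed under 0.05 whichever array was left out, with differences from 0.43 to 0.54.

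The 4 other heat shock genes had smaller differences. Hspa8, the constitutive cytosolic Hsp70, measured 9.19, 8.97 and 9.13 in controls and 9.31, 9.22 and 9.26 with C3a. The groups did not overlap, and the difference was 0.16 ± 0.10 (SE; limma, unadjusted p = 0.147). Cryab, which encodes αB-crystallin and guards desmin and titin in muscle, measured 9.68, 9.28 and 9.67 in controls and 9.80, 9.65 and 9.68 with C3a. The groups overlapped, since control replicate 2 was low and the others were near the C3a arrays, and the difference was 0.16 ± 0.13 (SE). Hspd1, the mitochondrial chaperonin Hsp60, measured 6.24, 6.16 and 6.18 in controls and 6.38, 6.29 and 6.26 with C3a, a difference of 0.12 ± 0.09 (SE) with groups that did not overlap. Hspb1, the small heat shock protein Hsp27, gave 0.14 ± 0.13 (SE).

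The heat shock element, 3 units of GAA and TTC in turn with 2 bases between units, was in 0.736% of all windows and in 2 of the 4 heat shock members with a window, Hspa8 and Hspd1. The matches are shown, in capitals, because HSF1 is known to bind such repeats. In Hspd1 overlapping matches form 1 longer run.
Hspa8, chr8:50080281-50080333, plus strand: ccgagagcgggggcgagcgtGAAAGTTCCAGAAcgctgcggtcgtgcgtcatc
Hspa8, chr8:50080439-50080491, plus strand: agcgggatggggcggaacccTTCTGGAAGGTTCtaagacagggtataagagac
Hspd1, chr9:64084242-64084287, minus strand: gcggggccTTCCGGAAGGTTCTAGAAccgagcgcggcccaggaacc

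Across the whole array the median difference was larger at higher signal. Among the 426 genes with a mean log2 signal over 6 the median difference was 0.16, against 0.013 among the 4271 genes with a mean under 0. The 6 members over 6, which are 5 heat shock genes and Atf4, had a median of 0.15. The cardiomyocyte markers, most of them also of strong signal, had a median difference of 0.14 over 10 genes. Of these, 7 had a difference above 0 and 3 below 0, with Actn2 lowest at -0.30. After quantile normalization, which gives every array the same distribution of signals, the median of the 426 genes was -0.017 and that of the heat shock branch -0.0081. The differences of Hspa8 and Cryab were then -0.05 each and that of Hspd1 -0.01, while Hsp90ab1 kept 0.38 (unadjusted p = 0.00108 in limma) and Hsp90aa1 0.22 (unadjusted p = 0.0179). The part of the strong-signal shift and of the cardiomyocyte markers in the heat shock differences was not tested. Without any normalization between arrays the median of all genes was -0.29, and relative to it Hsp90ab1, at 0.17, was higher and Calr, at -0.76, lower.

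**Figure D3:**
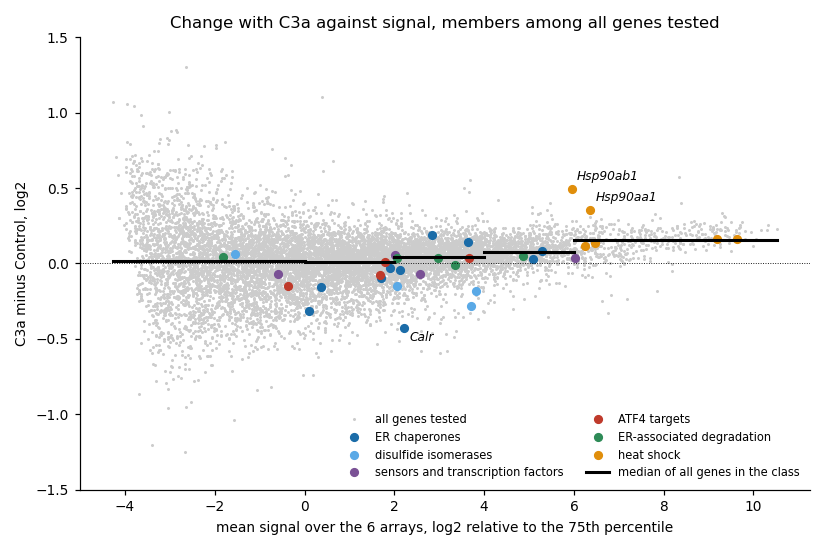
Difference in log2 signal, C3a minus control (y axis), against the mean log2 signal over the 6 arrays (x axis), for the 10390 genes tested (grey, 1 of them beyond the axis) and the 33 members (coloured by branch); black bars are medians of all genes within 5 ranges of signal. The bars lie near 0 at low signal and at 0.16 over 6, Hsp90aa1 lies above the bar at the right and the 4 other heat shock genes near it, and Hsp90ab1 lies above the bar of 0.076 for signals from 4 to 6.

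Other probes of the same genes did not all follow the probe shown. These comparisons were chosen after the values were seen. The second probe of Hsp90ab1, matched to the same transcript, read 4.98, 4.95 and 4.92 in controls and 4.95, 4.90 and 4.92 with C3a. The groups overlapped, with a difference of -0.02 (limma, unadjusted p = 0.78). The distance between both Hsp90ab1 probes on the same array was 0.76 ± 0.11 in controls and 1.27 ± 0.079 with C3a (SD, 3 arrays each; exact permutation test, two-sided p = 0.1, the smallest possible). Subtracting 1 value from a whole array leaves this distance unchanged, but a shift that depends on signal does not. The distance restates the differences of both probes and does not say which of them follows the gene. The second probe of Hsp90aa1 gave 0.14 (limma, unadjusted p = 0.30), and with the mean of both probes the difference in Hsp90aa1 was 0.25 with an unadjusted p of 0.067.

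Hspa8 had 4 probes, with differences of 0.16, 0.15, 0.09 and -0.66. The last was lower with C3a in all 3 pairs (limma, unadjusted p = 0.058, or 0.00289 with the replicate block, and adjusted p = 0.743 and 0.221). That probe read highest on control replicate 2, at 4.79, and lowest on C3a replicate 3, at 3.17, the arrays of highest and lowest 75th percentile. The other Hspd1 probes gave -0.21 and -0.07 beside the 0.12 of the probe shown. Over the list, 10 genes had 14 further probes, of which 13 were tested. The sign was the same as for the probe shown in 6 and opposite in 7. None had an unadjusted p under 0.05, and with the replicate block 1 did, the Hspa8 probe at -0.66. Hsp90 and Hsp70 genes have near-identical copies in the genome, so which transcripts a probe captured is uncertain.

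**Figure D4:**
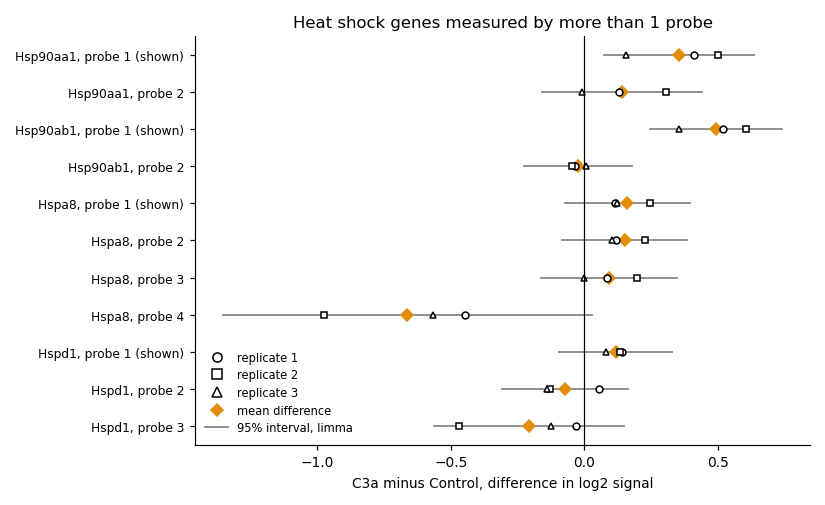
Difference in log2 signal, C3a minus control (x axis), for every tested probe of the heat shock genes with more than 1 probe (y axis): diamonds are means, lines 95% intervals from limma and open symbols the 3 same-numbered pairs. The 2 probes of Hsp90ab1 stand at 0.49 and -0.02, and the 4 probes of Hspa8 between -0.66 and 0.16.

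Other genes of these pathways came from a list of 98 and were read in the same fit. Of 85 tested, 49 had a difference above 0 and 36 below 0, with a median of 0.029. None passed the adjusted threshold in limma, none was higher at an unadjusted p under 0.05 and 3 were lower (3.53%, against 2.43% of all genes). These were Fkbp14, an ER proline isomerase, at -0.67, Dnajb5, a cytosolic DnaJ protein, at -0.53, and Slc3a2, the heavy chain of amino acid transporters and an ATF4 target, at -0.36. Fkbp14 was dim and was well above background on only 2 of the 3 control arrays. For Dnajb5 the control arrays read -1.83, -1.84 and -2.17 and the C3a arrays -2.30, -2.49 and -2.64, without overlap.

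Ddit3, which encodes CHOP, the factor that carries the response towards cell death, measured 5.33, 4.76 and 5.26 in controls and 5.30, 5.15 and 5.04 with C3a, a difference of 0.04. The C3a arrays lay inside the control range. Atf3, a stress-induced partner of ATF4, gave -0.18 and Hspa1a, the inducible Hsp70, gave 0.05. The probe of Hspa1a cannot be told apart from the near-identical copy Hspa1b, which had no probe of its own. Hsf1, the master factor of the heat shock response, measured 2.28, 2.28 and 2.45 in controls and 2.60, 2.53 and 2.46 with C3a, a difference of 0.19 with groups that did not overlap (limma, unadjusted p = 0.089). Its list of 27 other heat shock genes held none higher and 1 lower, Dnajb5, at an unadjusted p under 0.05. Of the HSP90 co-chaperones in the list, Stip1 and Ahsa1 gave -0.14 and -0.13. Others were above 0, with Fkbp4 at 0.14, Cdc37 at 0.11, Ptges3 at 0.04, Chordc1 at 0.07 and Stub1 at 0.15. Bag3, a partner of Hsp70 in muscle, gave 0.00. The co-chaperones and Bag3 were named after their values were seen.

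**Figure D5:**
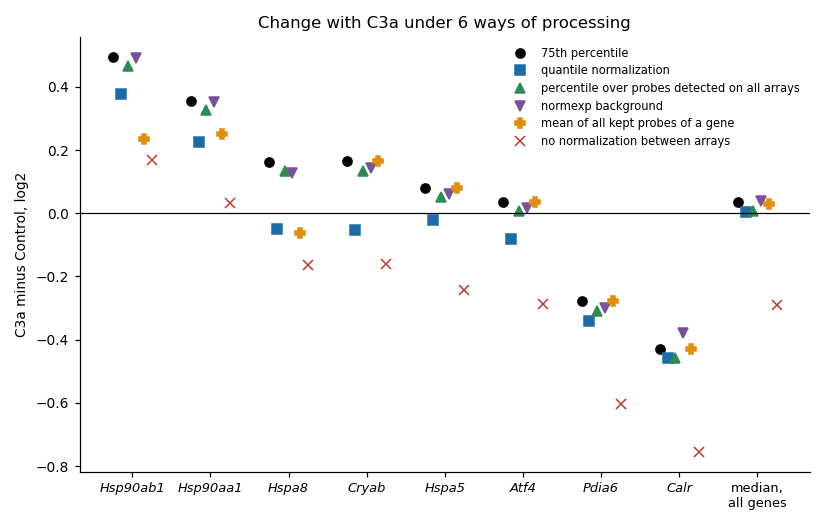
Difference in log2 signal, C3a minus control (y axis), for 8 members and for the median of all genes tested (x axis) under 6 ways of processing the arrays (symbols). Hsp90ab1 lies above 0 and Calr below 0 in all 6, from 0.17 to 0.49 and from -0.76 to -0.38, while Hspa8 and Cryab fall to -0.05 with quantile normalization.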

How the data were processed

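Total RNA of 6 NRVC cultures was labelled with Cy3 and hybridised to 1-colour Agilent SurePrint G3 Rat arrays. The authors deposited spot intensity values from Agilent Feature Extraction 11.5.1.1, background-corrected but not scaled between arrays, and a log2 table that was found to be the same intensity on the log2 scale after subtraction of each array's 75th percentile. Control spots and outlier-flagged spots were left out and spots of a probe averaged, giving 45572 probes on all arrays, of which 46.3% matched a gene symbol. The filter on dim probes kept 23438 probes that were well above background throughout 1 group or both. A probe counted as well above background where at least 50% of its spots did.

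Groups were compared by the lmFit and eBayes functions of limma 3.58.1 (R 4.3.3), two-sided, and p-values were adjusted by Benjamini-Hochberg across these probes. The fit was tested on simulated data. Fold changes are on the log2 scale. Precision is limited by the number of arrays. The members, lists and tests were chosen with earlier results of these data known. All members are named; array values are given for members past a threshold, members without overlap, the strongest signal of each branch and a few fixed genes.

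Replicate numbers were checked for pairing: deviations from the group means correlated at 0.28, 0.32 and 0.31 for equal numbers and at -0.26 to -0.093 for unequal ones. The deviations of a group sum to 0, so the negative values for unequal numbers are not a separate result. The pairing comes from these values, since the labels give only the number, and the p-values with the replicate block rest on it. Whether equal numbers share a preparation was not tested. Alternatives were 3 other scalings, normexp background (offset 50), the deposited table, 2 other filters, a variance trend, the block, the methods' test, the mean of a gene's probes and each array left out. Slide and scan date could not be blocks, there being 1 of each.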

Additional observations from a re-analysis of the deposited data

How the results depend on the processing

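No member passed the adjusted threshold in limma under any of the alternatives, and Hsp90ab1, Hsp90aa1, Calr, Creld2, Pdia6, P4hb, Pdia3, Dnajb9, Dnajc3, Xbp1, Trib3 and Asns kept their direction in all 17. Hsp90ab1 kept an unadjusted p under 0.05 in 16 of the 17, losing it without normalization between arrays, and Calr and Hsp90aa1 in 11 each. Except for the mean of all probes of a gene, each alternative used the probe shown. The second probe of Hsp90ab1 gave -0.02 (limma, unadjusted p = 0.78). Members higher at an unadjusted p under 0.05 numbered 2, against 1 with the mean of all probes of a gene, 1 without a filter on dim probes, 0 without normalization and 1 to 2 with an array left out. Members lower numbered 1, against 0 without a filter, 0 in the methods' test, 3 without normalization, 3 with the replicate block, 2 with a variance trend and 0 to 2 with an array left out. The block changed no other call of a member. Genes higher numbered 302, against 122 without a filter, 9 without normalization, 163 with probes detected on all 6 arrays, 603 with the replicate block and 181 to 391 with an array left out. Genes lower numbered 252, against 1117 without normalization, 150 with normexp, 628 with the block, 164 in the methods' test and 91 to 392 with an array left out.

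Without normalization the medians were -0.36 for ER chaperones, -0.49 for disulfide isomerases, -0.34 for sensors and transcription factors, -0.36 for ATF4 targets, -0.29 for ER-associated degradation and -0.16 for heat shock, beside a median of -0.29 over all genes. With quantile normalization the heat shock median was -0.0081. The sign differed from the values reported in 17 of 33 members without normalization, 10 with quantile normalization, 7 without control replicate 2 and 5 with the mean of probes. The causes were not tested. Normexp used the median spot signal because the scanner files used here hold no mean signal. Signals near background limit Pdia4 and Ern1.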

Other observations

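In the fit with the replicate block, 8 of the 85 other pathway genes had an unadjusted p under 0.05 and a lower signal with C3a, or 9.41%, and none a higher one, where 6.04% of all genes were lower and 5.8% higher in that fit. None passed the adjusted threshold in limma. Beside Fkbp14, Dnajb5 and Slc3a2 these were Mesd, an ER chaperone of lipoprotein receptors, at -0.50, Hspb8, a small heat shock protein of muscle, at -0.38, Erlec1, an ER lectin, at -0.35, Sesn2, a stress-induced regulator of mTORC1, at -0.29, and Vcp, the ATPase that pulls proteins from the ER membrane, at -0.24. They were named after their values were seen. For Vcp the control arrays read 4.21, 4.41 and 4.17 and the C3a arrays 4.09, 4.10 and 3.86, without overlap. Vcp serves the same degradation branch in which the 5 tested members differed by at most 0.05.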
